A study of Mus musculus with 12 samples.

Results

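Heart and muscle were set against each other at 1645 cytosines of polyadenylated mouse RNA, in 1304 genes, of which 1558 sites lie in genes annotated as protein-coding. These are the sites of the deposited mouse table, 2498 cytosines in 1964 genes, that had at least 20 reads in heart and at least 20 in muscle. Polyadenylated RNA had been treated with bisulfite and sequenced, and the m5C level of a site is the percentage of reads in which its cytosine stayed unconverted. Heart was 1 library and muscle was 4 libraries in 1 set of columns, all from female wild-type C57BL/6 mice aged 8 to 10 weeks. Liver, used further below, was 1 library labelled F. Lung, small intestine and spleen were 2 libraries each, 1 labelled F and 1 labelled M, from mice of the same age. The labels give no treatment, do not name the muscle that was taken, and do not say whether the 4 muscle libraries came from separate animals. Each tissue has a single value per site, without replicate values, so the tests below set one deposited column against the other and take in only the error of counting reads.

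5-Methylcytosine is a base modification that NSUN2 and NSUN6 place on mRNA, and that the export factor ALYREF is known to bind. Bisulfite turns unmodified cytosine into uracil, which is read as T, whereas m5C is still read as C. NSUN2 sites are known for G-rich sequence just after the cytosine, and NSUN6 sites for the letters TCCA after it. Heart and muscle are both striated tissues built on sarcomeres and oxidative metabolism. Heart beats continuously, with adrenergic signals adjusting its rate and force, whereas muscle contracts under its motor nerves.

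The flanking sequence could be read for 35 of the 1645 sites, in 28 genes, because they lay in the RefSeq windows around annotated gene starts (GRCm38.p6, from 250 bases before a start to 50 after it). The site's base was C in 35 of the 35 on the strand the table gives. Of them, 0 were called higher in heart and 3 were called lower, beside 5.35% higher and 10.0% lower of all 1645 sites. Those 3 are shown first, then Mpc2, Ybx2, Ptpn4 and 3 adjacent sites of Ppm1m, which have the same or another context and no called difference, with the site's C and any listed neighbour in capitals and the sequence written 5′ to 3′ on the gene's strand.
Fam53a, chr5:33629586-33629606, minus strand: cgtccccatgCgcggagcgcg
Tpt1, chr14:75845251-75845271, plus strand: acgacagttcCgggggagccg
Cacna2d1, chr5:15934706-15934726, plus strand: gcggataaatCagggaggcga
Mpc2, chr1:165461254-165461274, plus strand: gctgccagagCcggggaaggg
Ybx2, chr11:69936188-69936208, plus strand: acggcggcctCggggactccc
Ptpn4, chr1:119837149-119837169, minus strand: catctcgccgCgaggtgcgag
Ppm1m, chr9:106199102-106199122, minus strand: gcgctccagCCCggtgcccta

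Fam53a, which codes for a nuclear protein, had a level of 5.15% of 136 reads in heart and 30.0% of 110 reads in muscle. Tpt1, the translationally controlled tumour protein, was at 2.97% of 101 reads in heart and 20.1% of 239 in muscle, at base 6 counted from its annotated start. Cacna2d1, an auxiliary subunit of voltage-gated calcium channels, was at 11.1% of 81 reads in heart and 28.1% of 160 in muscle. These 3 sites were lower in heart at adjusted p = 1.1e-06, 9.8e-05 and 0.0099 (Fisher's exact test), in the order given. Ptpn4, a tyrosine phosphatase, was at 57.6% of 264 reads in heart and 49.7% of 147 in muscle, which did not pass. Mpc2, a subunit of the mitochondrial pyruvate carrier, was at 0.668% in heart and 1.69% in muscle, and Ybx2, a Y-box RNA-binding protein, at 10.4% in heart and 14.6% in muscle. The 3 adjacent cytosines of Ppm1m, a phosphatase gene, were at 34.3%, 12.4% and 18.8% in heart and 26.1%, 4.92% and 16.8% in muscle, in order of rising coordinate, and none was called.

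The form CNGGG, a run of 3 G that starts 2 bases after the site's C, on the site's strand, stood at 4 of the 35 sites (11.4%), which are Tpt1, Cacna2d1, Mpc2 and Ybx2. Of the 2568955 cytosines in all 32851 windows, 3.05% had it. The site was followed by TCCA at 0 of 35 sites, against 0.668% of all cytosines in the windows. The next 5 bases held 2.89 G on average after a site and 1.28 after any cytosine of the windows. These windows cover gene starts alone, 12 of the 35 sites lay within 10 nt of another listed site, and the sequence of the remaining members was not used here.

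Across all 1645 sites the tissues were close in their middle and apart in their tails. The median level was 10.8% in heart (quartiles 5.66 and 17.1) and 11.6% in muscle (5.79 and 18.8), and the median difference, heart minus muscle, was -0.313 percentage points. Levels of the tissues correlated across sites with Pearson's r of 0.773 and Spearman's rho of 0.583, a description over 1645 sites that share genes, libraries and listing. Differences lay within 5 points at 823 sites and within 10 points at 1281, and ran from -50.4 to 43.6. A site was called where the adjusted p was under 0.05 and the levels differed by at least 10 points: 253 sites passed (15.4%), of which 88 were higher in heart (5.35%) and 165 lower in heart (10.0%). The 88 higher sites fell in 82 genes and the 165 lower sites in 148. The columns differed by more than the counting of reads allows at ordinary sites too: the median chi-square statistic over the 1645 sites was 7.01 times that of counting error alone. With each site's statistic divided by that factor, 19 sites were called higher and 55 lower, and calls lost in this way are given below as lost after scaling; the sequence-bearing Fam53a, Tpt1 and Cacna2d1 sites are among them. Just inside the 20-read limit, the 62 sites whose smaller coverage was 20 to 24 reads had a median difference of 4.35 points, and just outside it, the 38 sites at 15 to 19 reads had 4.02 points.

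**Figure D1:**
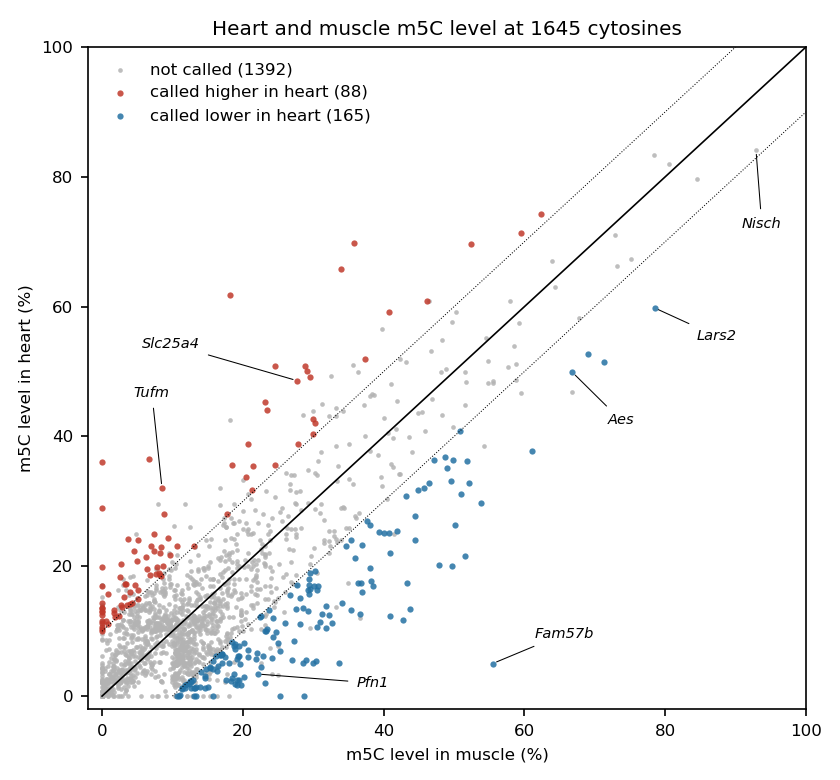
Each point is 1 of 1645 cytosines, with its m5C level in heart (vertical axis, %) against its level in muscle (horizontal axis, %); red points were called higher in heart (88), blue points lower (165), and the dotted lines mark differences of 10 points. Slc25a4 and Tufm lie above the band, Fam57b, Pfn1, Aes and Lars2 below it, and Nisch, the site with the highest mean level, lies inside it.

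The split of calls was not the same at sites with and without a call by the authors in another tissue. At the 505 sites that the authors also called in liver, small intestine, lung or spleen, in the authors' deposited table, 35 were higher in heart and 36 lower when these sites were tested alone, so that 49.3% of calls were higher, against 34.8% over all 1645 sites. Their median difference was 0 points. Among the 1140 other sites, 52 were called higher and 127 lower in the test over all sites. The authors' deposited calls named 500 members in both tissues, 358 in heart alone of this pair, 368 in muscle alone and 419 in neither. Of the 358 called in heart alone, 58 were called higher in heart here and 8 lower. Of the 368 called in muscle alone, 86 were lower in heart and 0 higher, so most sites with the authors' call in 1 tissue of the pair were not called different here.

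Calls were more frequent at highly methylated sites. Of the 242 sites with a mean level under 5%, 0 were called, but levels with such a mean cannot differ by 10 points. That 0 was therefore fixed in advance and says nothing about these sites. Of the 497 sites from 5% to 10%, where the minimum also limits calls, 11.1% were called. Of the 576 sites with mean levels from 10% to 20%, 16.7% were called, and of the 249 from 20% to 40%, 31.7%. At the 81 sites of 40% or more, 8 were higher and 15 lower in heart, 28.4% in all. At 50% or more stood 45 sites in heart and 44 in muscle, and 25 of them did so in both. Along genes of at least 10 kb, 5 sites were higher and 19 lower of 206 within 1 kb of the 5′ end, 12 and 25 of 219 within 1 kb of the 3′ end, and 51 and 89 of 818 elsewhere.

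Nisch, the imidazoline receptor protein nischarin, had the highest mean, 84.1% of 207 reads in heart and 92.9% of 168 in muscle. Pabpc4, a poly(A)-binding protein, was at 83.3% of 2813 reads in heart and 78.4% of 2060 in muscle. Neither difference reached 10 points. Znrf1, a ubiquitin ligase, was at 79.7% in heart and 84.5% in muscle at position 111622094 of chromosome 8. Another Znrf1 site at 111625363, named because it was called, was at 1.74% of 115 reads in heart and 19.2% of 208 in muscle (adjusted p = 7.5e-06, Fisher's exact test). Znrf1 thus held a site at a high level in both tissues and another that was lower in heart, though that call was lost after scaling.

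The 5 sites higher in heart with the deepest coverage lay in Slc25a4, Cox8b, Cd81, Myom1 and mt-Rnr1, and all 5 stayed called after scaling. Slc25a4, the main carrier of ADP and ATP across the inner mitochondrial membrane in heart and muscle, had a level of 48.6% of 243137 reads in heart and 27.7% of 170053 in muscle, on chromosome 8 at 46209134. The difference was 20.8 points (95% Newcombe interval 20.5 to 21.1). Cox8b, the cytochrome c oxidase subunit made in heart and muscle, was at 38.8% of 80697 reads in heart and 20.7% of 47006 in muscle, a difference of 18.2 points (17.7 to 18.6). For both genes the p-value was below what the arithmetic can write. Myom1, a myosin-binding protein of the sarcomere's M band, was at 13.8% of 4984 reads in heart and 2.85% of 5221 in muscle (difference 11 points, 9.94 to 12.1).

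Cd81, a membrane tetraspanin, was at 18.9% of 13653 reads in heart and 8.06% of 5847 in muscle. In mt-Rnr1, the small ribosomal RNA of the mitochondrion, which NSUN4 is known to methylate, position 911 was at 74.3% of 68497 reads in heart and 62.4% of 3973 in muscle (difference 11.9 points, 10.4 to 13.5). It was the only site called among the 15 members on the mitochondrial chromosome, and it lies within 10 nt of another listed site.

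The largest positive differences rested on fewer reads. Gid4, the substrate receptor of a ubiquitin ligase, had 61.8% of 34 reads in heart and 18.2% of 33 in muscle, a difference of 43.6 points whose interval runs from 20.3 to 60.8. Smyd2, a lysine methyltransferase, was read more deeply, at 50.8% of 1037 reads in heart and 24.6% of 2411 in muscle (26.2 points, 22.7 to 29.7). Bag6, a chaperone of newly made membrane proteins, was at 50.1% of 3945 reads in heart and 29.1% of 3831 in muscle. Gm13340, with 29% of 310 reads in heart and 0 of 43 in muscle, which allows up to 6.98%, has no entry in the annotation used, and Rpl34-ps1, at 50.8% in heart and 28.8% in muscle, is named as a ribosomal protein pseudogene; reads of near-identical copies could have been placed at either, so both are uncertain. Of the 12 highest differences, those of Smyd2, Bag6, Tufm and Slc25a4 stayed called after scaling.

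**Figure D2:**
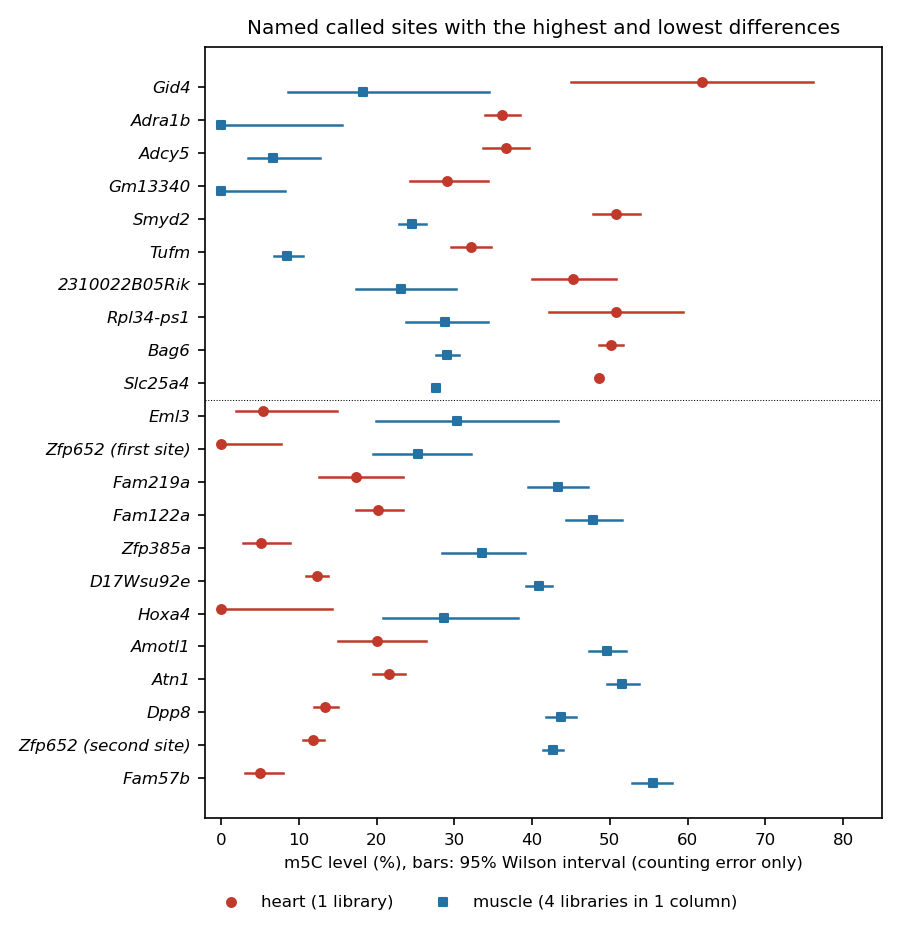
Heart levels (red circles) and muscle levels (blue squares) with 95% Wilson intervals for named called sites with the highest differences (above the dotted line) and the lowest (below it), in order of the difference. Intervals of the tissues do not overlap at any site drawn; Gid4 has wide intervals in both tissues, whereas those of Slc25a4 are narrower than their symbols.

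The 5 sites lower in heart with the deepest coverage lay in Pfn1, Pde4dip, Aes, Slc25a11 and Cenpb, and all 5 stayed called after scaling. Pfn1, the actin-binding protein profilin, was at 3.40% of 15778 reads in heart and 22.1% of 21258 in muscle (difference -18.7 points, -19.4 to -18.1). Pde4dip, or myomegalin, an anchor of a cyclic AMP phosphodiesterase, was at 24% of 23173 reads in heart and 44.5% of 56211 in muscle at 97743184 of chromosome 3. A second Pde4dip site at 97741346 differed less, 11.4% in heart and 15.5% in muscle. Aes, a corepressor of the Groucho family, was at 49.9% of 18387 reads in heart and 66.8% of 15523 in muscle. Slc25a11, the oxoglutarate carrier, was at 17.8% of 13275 reads in heart and 38.2% of 8728 in muscle, and Cenpb, a centromere protein, at 25.4% of 6468 in heart and 41.9% of 6027 in muscle.

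The lowest difference was in Fam57b, a protein linked to ceramide synthesis, on chromosome 7 at 126830080. It was at 5.02% of 319 reads in heart and 55.5% of 1421 in muscle, a difference of -50.4 points (-53.6 to -46.5, adjusted p = 8.3e-70, Fisher's exact test). Atn1, the transcriptional corepressor atrophin-1, was at 21.6% of 1537 reads in heart and 51.6% of 2328 in muscle. Amotl1, a junction protein of the angiomotin family, was at 20.1% of 189 reads in heart and 49.7% of 1679 in muscle. Fam122a, an inhibitor of protein phosphatase 2A, was at 20.2% of 687 reads in heart and 47.9% of 726 in muscle. Hoxa4, a homeobox gene, had 0 of 23 reads unconverted in heart, which allows a level of up to 13%, and 28.7% of 101 in muscle. Of the 12 lowest differences, those of Hoxa4, Fam219a, Eml3 and the first Zfp652 site were lost after scaling and the other 8 stayed called.

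Genes with more than 1 tested site gave several readings of the same transcripts, which are not replicates. There were 239 such genes with 580 sites; in 149 of them all sites differed in 1 direction, and in 110 of the 175 genes whose sites all lay over 10 nt apart. No gene had calls in opposite directions. Lower calls at 2 or more sites occurred in 16 genes, in 14 of which the called sites lay over 10 nt apart, whereas the 5 genes with 2 or more higher calls, among them Adcy5, Gm13340, Rb1cc1 and Tm9sf3, had them within 10 nt of each other. After scaling, Akt2 and Dpp8 still had 2 sites called lower, and 0 genes had 2 called higher.

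Akt2, the kinase through which insulin drives glucose uptake in muscle, was lower in heart at sites 280 nt apart, with 13.9% of 871 reads and 37.8% of 2494 in heart and 31.8% of 897 and 61.1% of 4537 in muscle. Its remaining site was at 8.20% in heart and 11.5% in muscle and was not called. Dpp8, a dipeptidyl peptidase, was at 13.4% and 10.0% in heart and 43.7% and 23.1% in muscle. Fam57b, the gene with the lowest difference, had a second site with 0 of 130 reads in heart, which allows up to 2.31%, and 13% of 639 in muscle. In Zfp652, a zinc finger repressor, 0 of 46 and 11.8% of 2347 reads were unconverted in heart and 25.3% of 178 and 42.7% of 5699 in muscle, and the zero allows up to 6.52%. Both Zfp652 sites lay outside the annotated span of that gene, so their assignment to it rests on the deposited gene name. Hif1an, the hydroxylase that inhibits HIF, was at 9.92% and 1.44% in heart and 24.7% and 15.1% in muscle. Zfp106, an RNA-binding zinc finger protein, had 5 tested sites, at 3.17% to 6.62% in heart and 10.3% to 19.3% in muscle, with 2 called. Mtss1l, which binds actin and membranes, had 5 sites at 2.06% to 6.06% in heart and 11.3% to 23.2% in muscle, also with 2 called.

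Rb1cc1, the autophagy protein FIP200, was at 14% and 14.1% in heart and 2.68% and 3.55% in muscle at adjacent cytosines. Tm9sf3, a membrane protein of the secretory pathway, had 3 cytosines within 3 nt, at 22.3% to 24.9% in heart and 4.55% to 7.35% in muscle. Sites within 10 nt of another listed site made up 16 of the 88 higher sites (18.2%), 5 of the 165 lower sites (3.03%) and 169 of all 1645 (10.3%). Their median difference was 1.46 points, against -0.731 points at the 1476 sites that stood alone. The reads over such neighbours are largely the same, and whether neighbouring cytosines were incompletely converted together was not tested. After scaling, 1 higher and 0 lower calls were left at such neighbours, the mt-Rnr1 site.

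**Figure D3:**
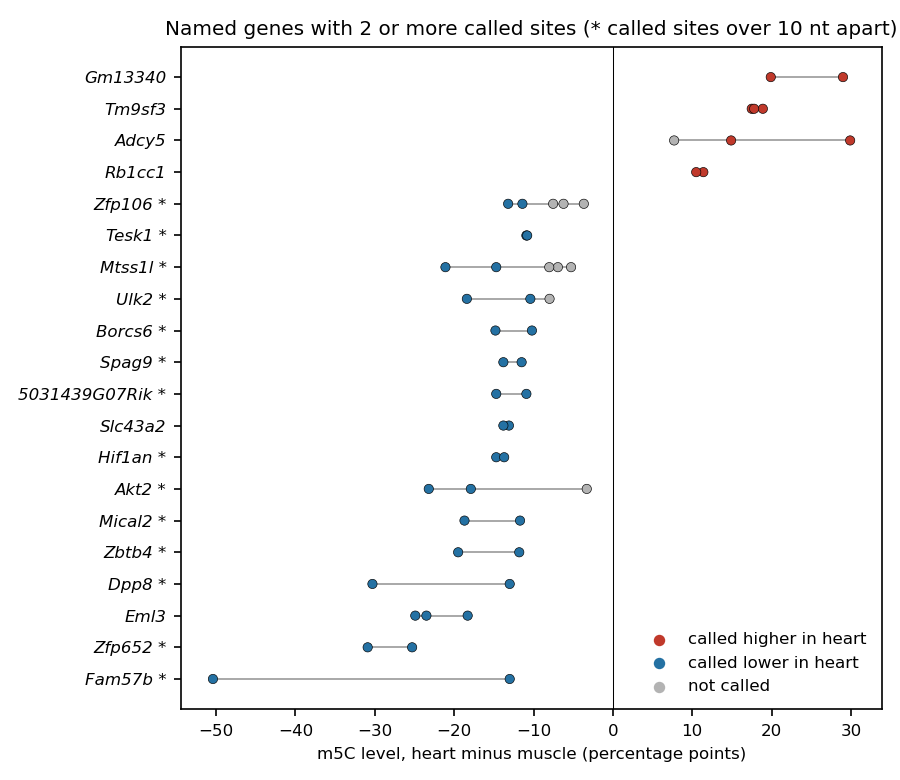
Each row is a named gene with 2 or more called sites and each point 1 tested site, by its difference in m5C level (heart minus muscle, percentage points); red points were called higher in heart, blue lower and grey not called, and a star marks genes whose called sites lay over 10 nt apart. The 16 genes with lower calls have every tested site below 0 and 14 stars. Among the starred genes is Zfp652, whose sites lay outside its annotated span. The genes drawn with higher calls have every tested site above 0 and 0 stars.

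Titin showed that sites of 1 gene need not move together. Ttn, the spring protein of the sarcomere, was higher in heart at 76880218 of chromosome 2, with 11.6% of 855 reads in heart and 0.630% of 1587 in muscle (adjusted p = 3.9e-34, Fisher's exact test). At 76881596 it was at 11.8% in heart and 2.98% in muscle, and at 76883992 at 11.2% in heart and 4.52% in muscle, both under the 10-point minimum. At 76715275, 6.19% of 3181 reads were unconverted in heart and 11% of 9120 in muscle, which is the opposite direction at adjusted p = 7.1e-15 by the same exact test but also short of 10 points.

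The genes of the sarcomere and Z disc, 25 tested sites in 17 genes, had 2 sites higher in heart and 2 lower, 8.00% each, against 5.35% higher and 10.0% lower of all 1645 sites. Their median difference was 0.564 points. The gene lists hold part of each class only, and called genes such as Rb1cc1 (higher), the matrix protein gene Emilin2 (higher) and the lysyl oxidase gene Loxl3 (lower) are in none of them. Besides Myom1 and the Ttn site, a call was made at Des, the muscle filament desmin (27% of 1939 reads in heart and 37.7% of 2322 in muscle at 75367203). Des had a deeper site at 75367402 with 23.7% of 30831 reads in heart and 33.4% of 69854 in muscle, just short of the minimum. After scaling the 2 higher calls stayed and the 2 lower calls did not. Myom2, another M-band protein, was at 11.8% in heart and 7.30% in muscle and did not pass. Of 17 sites in genes of excitation and calcium handling, 0 were higher and 2 lower (11.8%, near the share of all sites), which are Cacna2d1 and Camk2b, a subunit of the calcium-dependent kinase CaMKII (6.19% of 97 reads in heart and 22.8% of 701 in muscle). Atp2a2, the calcium pump SERCA2, was at 26.7% of 64394 reads in heart and 22.1% of 1003 in muscle. Both calls in this list were lost after scaling.

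Listed adrenergic and cyclic AMP genes had 3 higher sites (30.0%, against 5.35% of all sites) and 1 lower (10.0%, as over all sites) of 10. Their median of 4.06 points turned to -0.788 at the 8 sites with at least 50 reads in both tissues, and was 0.408 at the 3 sites with an authors' call in another tissue. Adra1b, the alpha-1B adrenergic receptor, was at 36.1% of 1774 reads in heart and 0 of 21 in muscle, and that zero allows up to 14.3%. Adcy5, a main adenylyl cyclase of heart muscle, was at 15.7% and 36.6% of about equal coverage (1011 and 1029 reads) in heart at adjacent cytosines, and at 0.840% and 6.72% of 119 reads each in muscle. The remaining Adcy5 site was at 11.6% in heart and 3.92% of 51 reads in muscle and was not called. The lower site was in Pde4dip. The 3 higher sites thus came from 2 genes, all 3 were read far more deeply in heart, and none of the 3 stayed called after scaling, whereas Pde4dip did.

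Listed insulin and mTOR signalling genes had 0 higher and 6 lower sites of 26 (23.1%, against 10.0% of all sites). Their median was -2.52 points, but 1.44 points at the 7 sites with an authors' call in another tissue. The 6 were in 4 genes: both Akt2 sites, Fam122a, both called sites of Ulk2 and Akt1s1, and 5 of the 6 stayed called after scaling. Ulk2, a kinase that starts autophagy, was at 6.97% and 2.20% in heart and 25.3% and 12.6% in muscle. Akt1s1, the mTORC1 inhibitor PRAS40, was at 19.2% of 2902 reads in heart and 30.3% of 7133 in muscle. Eif4ebp1, the translation repressor 4E-BP1, was at 14.4% in heart and 12.2% in muscle and did not pass. The list for transcription of the muscle and circadian programmes had 0 higher and 4 lower sites of 15 (26.7%), with a median of -4.51 points. The 4 were in the corepressor genes Atn1 and Aes and in Zfp652, whose sites lay outside its annotated span. Of these calls 3 stayed after scaling. Yap1, a Hippo pathway coactivator in that list, was at 15.1% in heart and 19.7% in muscle.

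Listed genes of oxidative phosphorylation and the citric acid cycle had 2 higher sites (7.41%) and 1 lower (3.70%) of 27, against 5.35% and 10.0% of all sites, and a median of 1.22 points. The higher sites were Slc25a4 and Cox8b, and the lower was Gpd2, the mitochondrial glycerol-3-phosphate dehydrogenase (33.1% of 139 reads in heart and 49.6% of 3496 in muscle). Slc25a4 is a carrier, and Slc25a11 and Slc25a51, of the same gene family, were not in this list. Both were called lower in heart and stayed called after scaling, so the split of calls here depends on which carriers were listed. Atp5b, the catalytic subunit of ATP synthase, was at 12.7% of 109211 reads in heart and 4.08% of 58362 in muscle, a difference of 8.62 points (8.36 to 8.87) that did not reach the minimum. A second Atp5b site with fewer reads differed the other way without passing, at 7.91% of 139 reads in heart and 11.3% of 62 in muscle. Cox7c, another oxidase subunit, was at 11.8% in heart and 13.6% in muscle. Of 34 sites in listed ribosome and translation genes, 2 were higher, both in mitochondrial elongation factors, and 2 lower, 5.88% each. Tufm was at 32.1% of 1279 reads in heart and 8.51% of 846 in muscle, and Gfm1 at 23.1% of 281 in heart and 10.7% of 131 in muscle. The Gfm1 site lay outside that gene's annotated span. The lower sites were Tpt1 and Lars2, the mitochondrial leucyl-tRNA synthetase. Lars2 was at 59.8% of 789 reads in heart and 78.5% of 1823 in muscle, although the authors' deposited table called it in neither tissue. The same site, within 1 kb of the 3′ end, was at 82.7% of 1593 reads in liver and 92.0% of 19220 in small intestine. In lung it was at 92.9% of 5276 reads and in spleen at 92.8% of 8747. Whether all its reads came from Lars2 transcripts was not tested. Rpl23, a cytosolic ribosomal protein whose reads can be shared with pseudogene copies, was at 34.1% in heart and 26.8% in muscle. Rpl22, a ribosomal protein gene that was not in this list, was called lower, and that call was lost after scaling. It was at 6.25% of 144 reads in heart and 19.4% of 433 in muscle. Slc25a4, Cox8b, Tufm and Lars2 stayed called after scaling, and Gpd2, Gfm1 and Tpt1 did not.

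Listed ubiquitin, proteasome and autophagy genes had 1 higher site, Gid4 (3.12%), and 4 lower (12.5%) of 32. These shares were near the 5.35% higher and 10.0% lower of all sites, and the list median was -2.56 points. The lower sites were the Znrf1 site above, Ube2r2, a ubiquitin-conjugating enzyme, Rnf123, a ubiquitin ligase, and Psme4, a proteasome activator (6.60% of 2423 reads in heart and 22% of 1262 in muscle). Of these 5 calls 3 stayed after scaling, those of Ube2r2, Rnf123 and Psme4. Further ubiquitin genes with calls were not in this list, such as Cul5, Rnf166, Usp38 and Mkrn2 (lower) and Rnf144b (higher). Listed glycolysis and glycogen genes had 0 higher and 2 lower of 10 (20%), Aldoa and Gpd1l. Aldoa, the muscle aldolase, was at 16% of 212 reads in heart and 36.9% of 1286 in muscle. The authors' deposited table called neither of these sites in heart or in muscle. Pfkm, the muscle phosphofructokinase, was at 16.6% in heart and 12.2% in muscle and did not pass. Listed matrix and adhesion genes had 0 higher and 1 lower of 31 (3.23%), Thbs3, a thrombospondin, and neither this call nor those of the glycolysis list stayed after scaling. Listed fatty acid genes had 0 calls at 8 sites, with Mlycd, malonyl-CoA decarboxylase, at 4.33% in heart and 10.1% in muscle. The m5C machinery itself had 3 tested sites and 0 calls: Nsun5, which methylates ribosomal RNA, at 14% in heart and 5.63% in muscle, Dnmt3a, a DNA methyltransferase, at 11.1% in heart and 20.8% in muscle, and Ybx2.

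**Figure D4:**
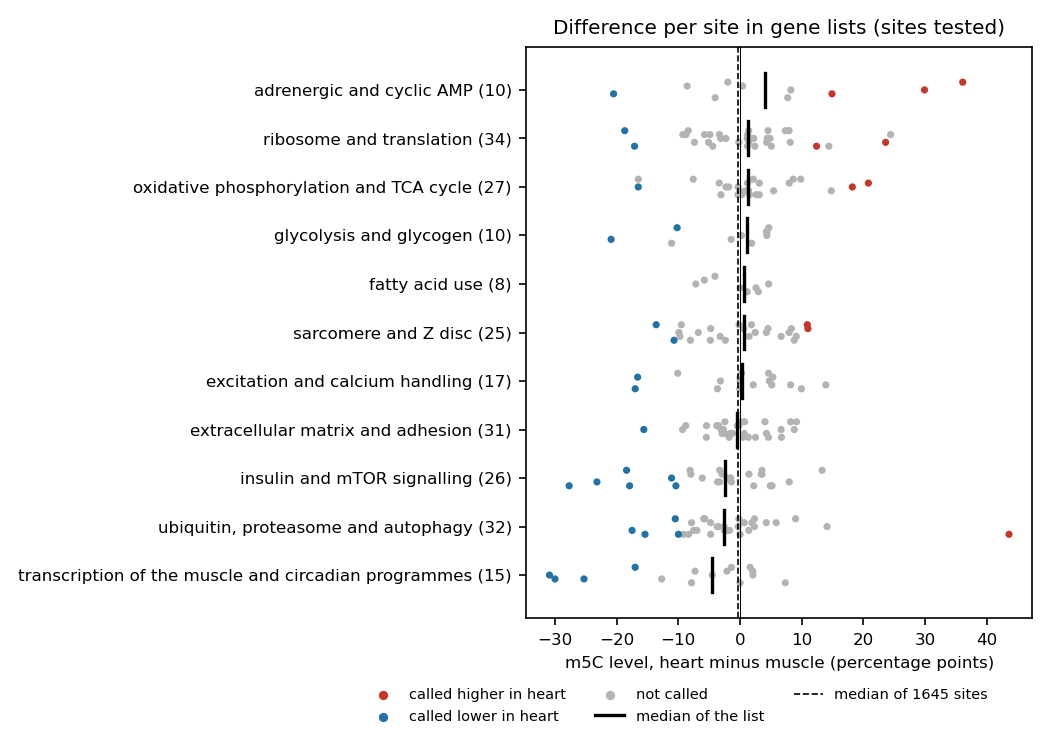
Difference in m5C level per site (heart minus muscle, percentage points) in 11 gene lists, ordered by median; the number of tested sites stands in parentheses, red points were called higher in heart, blue lower, thick bars are list medians and the dashed line is the median of all 1645 sites, -0.313 points. List medians run from -4.51 points for transcription of the muscle and circadian programmes to 4.06 points for adrenergic and cyclic AMP genes, which is -0.788 at a minimum of 50 reads.

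Coverage differed between the tissues at many sites, and the difference in level moved with it. The log2 ratio of heart to muscle coverage had a Pearson's r of 0.299 and a Spearman's rho of 0.288 with the difference over 1645 sites, a description, since both depend on the same libraries, transcripts and listing. Where heart had at least 4 times the reads of muscle, 16 of 78 sites were higher and 2 lower, with a median of 5.61 points. Where muscle had at least 4 times those of heart, 6 of 82 were higher and 18 lower, with a median of -3.50 points. Within 4 times, 66 of 1485 were higher and 145 lower. At the sites called in a further tissue the same order held, with medians of 2.64 points at 95 sites with at least 2 times more heart reads and -1.01 points at 56 with at least 2 times more muscle reads. In these bulk samples fewer cells of a type and less RNA per cell cannot be told apart, and the part of transcript abundance in the differences was not tested.

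The tissue labels were checked against the coverage of defining markers at listed sites. Of 20 skeletal muscle fibre markers 7 had a listed site, and 6 of these, among them Myh4, Actn3, Ryr1 and Myoz1, were blank in heart, while Cacna1s kept 58 and 175 heart reads at 2 of its sites against 6034 and 17756 in muscle. Of 20 cardiomyocyte markers 2 were listed: Corin, with 2844 heart reads and a blank in muscle, and Ttn in both. Ttn had more reads in muscle than in heart at every listed site, 9120 against 3181 at the deepest. Bpgm, a marker of red blood cells, was at 14.4% in heart and 34.1% in muscle, and Csf1r, a macrophage receptor, at 36.3% in heart and 49.9% in muscle. Both were called lower in heart, the Csf1r call was lost after scaling, and which cells their reads came from was not tested. Endothelial and fibroblast markers had 2 tested sites each, adipocytes 1 and Schwann cells 0, with 0 calls, and the part of cell mixture in the differences was not tested.

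The other 4 tissues placed the called sites differently. Sites called higher in heart had a median of 21.6% in heart and 6.90% in muscle, and 10.5% in liver at the 65 of 88 with at least 20 liver reads. Liver stood at or below both striated tissues at 34 of these, between them at 27 and at or above both at 4. Adra1b was at 36.1% in heart and 36.9% of 1837 reads in liver. Sites called lower in heart had a median of 9.18% in heart, 26% in muscle and 4.21% in liver. Liver was at or below both tissues at 113 of 140 of them, and at 741 of 1141 sites that were not called. Akt2 at 27638413, for example, was at 37.8% in heart and 8.87% in liver, and Pfn1 at 3.40% in heart and 0.346% of 18486 reads in liver. In small intestine, lung and spleen the medians were 5.74%, 5.56% and 2.78% at the sites higher in heart and 2.44%, 1.11% and 0.446% at those lower. At sites not called the liver median was 5.35%, and those of small intestine, lung and spleen were 3.57%, 1.84% and 1.24%. These columns took no part in choosing the calls, but sites may have been listed for their level in single tissues.

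**Figure D5:**
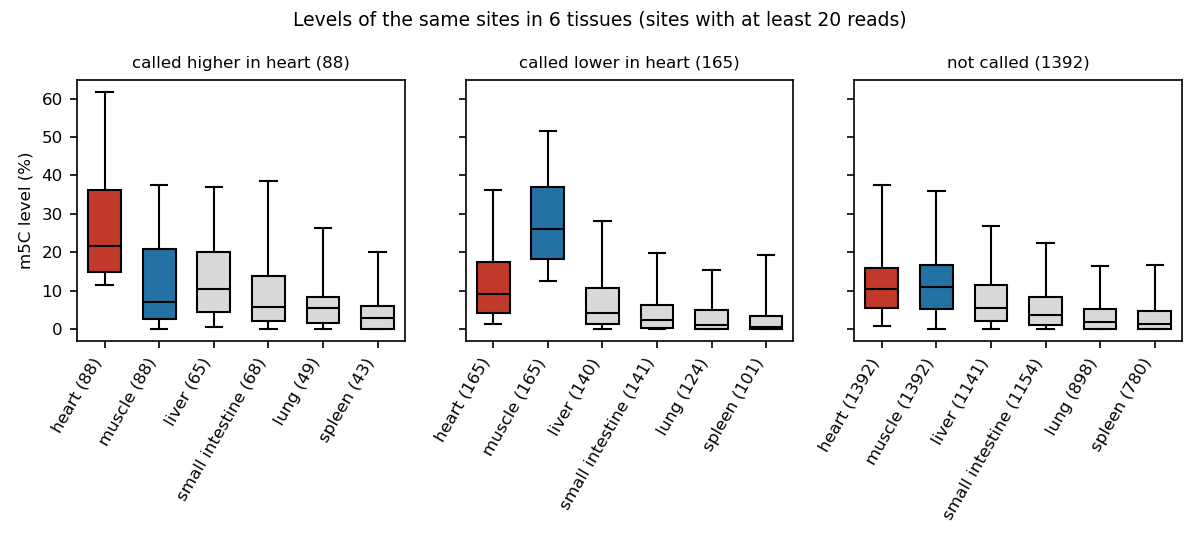
Boxes show medians and quartiles, with whiskers from the 5th to the 95th percentile, of m5C level (%) in heart (red), muscle (blue) and 4 further tissues (grey), for the sites called higher in heart, called lower in heart and not called; the number of sites with at least 20 reads stands in parentheses. At sites called lower in heart, which were chosen for a muscle level above heart, the muscle median of 26% stands above the other 5 tissues. At sites called higher the liver median of 10.5% lies between the 21.6% of heart and the 6.90% of muscle.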

How the data were processed

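The authors' deposited table gives, per the file headers, coverage as a count of reads, the m5C level as a fraction, a p-value and a yes or no site call (unit marked as other) for each tissue; the way the 4 muscle libraries were merged was not given in the sources used here. Build mm10 and tools HISAT2 2.10, SAMtools, cutadapt, Trimmomatic and bcl2fastq 2.17 come from the submitters' processing notes. Their settings and the site selection were not given in the sources used here. Deposited counts start at 10 reads and other cells are blank. The authors' p-values were not used.

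Unconverted reads were level times coverage, within 1.3e-04 of a whole number at every site tested. Each of the 1645 sites with at least 20 reads in both tissues was tested on its unconverted and converted reads with Fisher's exact test, two-sided, with Benjamini-Hochberg adjustment over all of them, and called at adjusted p under 0.05 and at least 10 points. Summed coverage of these sites was 2867555 reads in heart and 2843187 in muscle (medians 272 and 285 per site). Reads may not be independent molecules, so Wilson and Newcombe intervals at 95% and limits for zeros (3 counts) cover counting error only. Python 3.11.15, SciPy 1.17.1, pandas 2.3.3 and matplotlib 3.10.9 were used, and the test was tried on simulated data first.

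Sites named were the 12 highest and 12 lowest called differences, the 8 highest means, up to 4 deepest per list, all sites of genes with 3 or more tested, the m5C machinery and the 5 deepest calls each way; other sites, the called members of lists, genes with 2 or more called sites and those with printed sequence among them, were chosen after their values were seen. The members and the 21 gene and marker lists were chosen with earlier results of these data known. Some sites that the rule names are not reported here, but they stay in the counts. RefSeq on GRCm38.p6 matched 1617 members by gene name. Exon annotation was not used here, so sites were not assigned to exons or UTRs. Alternatives changed the coverage minimum, the difference and p thresholds, the sites included, the centring and the test.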

Additional observations from a re-analysis of the deposited data

Results flagged for a closer look

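Signal appeared at listed sites outside the comparison. Of 224 sites with at least 20 reads in heart and not in muscle, 147 had a level of at least 10% and more than 3 unconverted reads in heart, and 148 were blank in muscle. Corin, the protease that activates natriuretic peptides, was at 64.9% of 2844 reads in heart, and Mhrt, a long noncoding RNA of the myosin heavy chain locus, at 14.3% of 3119. Of 105 sites with at least 20 reads in muscle and not in heart, 72 met the same limits in muscle and 74 were blank in heart. Actn3, the alpha-actinin of fast fibres, was at 37.4% of 187291 muscle reads, Cacna1s, the calcium channel of skeletal muscle, at 54.6% of 11165 at 136070728, and the 12 sites of Ryr1, the calcium release channel, at 11.5% to 34.2%. Myh4, the fastest myosin, was at 1.27% of 1359239 reads. These genes were named after their values were seen. No difference between tissues can be given at these sites.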

How the results depend on the processing

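The counts of 88 sites higher and 165 lower in heart, and the median of -0.313 points, moved as follows. A coverage minimum of 100 gave 57 higher and a median of -0.883 points. Sites the authors called in a further tissue, tested alone, gave 35 higher and 36 lower, and sites called in heart or muscle a median of -1.86 points. Without a minimum difference, 258 were higher and 370 lower, and with a minimum of 20 points 14 and 28. The median chi-square over sites was 7.01 times that of counting error alone; dividing by it left 19 higher and 55 lower. Of 33 named called sites, 21 stayed called then and 12 did not, among them Gid4, Adra1b, Gm13340, Rpl34-ps1, 2310022B05Rik, Adcy5, Hoxa4, Fam219a, Eml3 and the first Zfp652 site. The cause of these moves was not tested. The remaining alternatives, 9 for the higher and 10 for the lower count, stayed within 1.5 times, and 8 gave medians from -0.772 to 0 points. Of the 8, the one with differences centred at their median has a median of 0 by construction. Among them is one chosen after seeing the data, without sites under 50 heart reads. List medians changed sign at a minimum of 50 reads for the adrenergic list (-0.788 at 8 sites), and at sites called in a further tissue for insulin and mTOR signalling (1.44 at 7), matrix and adhesion (0.471 at 19, against -0.438), glycolysis (-6.29 at 2, against 1.05) and fatty acid use (-4.07 at 1, against 0.578). No paired analysis was possible because each tissue has 1 set of columns, and for the same reason leaving out single muscle libraries could not be run. Depth limits zeros at 20 to 50 reads most.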
